A study of Bombyx mori with 4 samples.

Results

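The open regions described here are the ATAC-seq peaks of 1 sequence of the silkworm genome, BHWX01000002.1, called sequence 2 below. They were all the peaks with that name in the first column of the 4 deposited lists, with no filter on their values. There were 3374 such peaks among 169801 in all, of which 585 came from brain 1, 359 from brain 2, 1934 from fat body 1 and 496 from fat body 2. Merged wherever peaks of any list overlapped by at least 1 bp, they formed 2554 of the 130309 merged regions of the series. Sequence 2 was the shortest of 28 long sequences: its last peak ended at position 8363864, so that its reach was 8.36 Mb, against 10.6 to 21.5 Mb for the other 27.

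In ATAC-seq a transposase inserts adapters where DNA is not wrapped in nucleosomes or otherwise covered, and a peak is a stretch with more insertions than its surroundings. Such stretches are typically promoters, enhancers and other regulatory DNA, many of them shared by all tissues of an animal and others open in few cell types. The brain is mainly neurons and glia, and the fat body is the insect organ of nutrient storage and haemolymph protein synthesis. In bulk tissue, an opening in fewer cells and a weaker opening in all cells cannot be told apart.

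The libraries were made from wild-type Bombyx mori larvae of strain P50, 2 from brain and 2 from fat body, numbered 1 and 2 within a tissue and all titled with the code L5D3. Whether libraries of 1 tissue came from separate animals is not stated in the labels, nor whether a number marks a shared preparation, so the spread between them may be technical. The peak names of brain 1 carry the code 5L-4D, 5l3d stands in both the brain 2 and the fat body 1 names, and L5D3 in the names from fat body 2, so that brain 1 goes against its title. The lists name no genes, no genome of their build was used here, and the labelled tissues could therefore not be checked against marker genes. The lists held 36420, 11572, 107057 and 14752 peaks in the order above, and read depth is unknown.

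Sequence 2 had the highest peak density of all long sequences in both libraries numbered 2 and one of the lowest in both libraries numbered 1. Brain 2 had 42.9 peaks per Mb on sequence 2 against 25.3 on the other 27 together, and fat body 2 had 59.3 against 32.0. These densities were 1.70 and 1.85 times those of the other sequences, and both ranked 1 of 28. Brain 1 had 69.9 peaks per Mb on sequence 2 against 81.9 elsewhere, and fat body 1 had 231 against 240. These were 0.854 and 0.963 times the others, and both ranked 26 of 28.

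The tissues did not separate the libraries by this measure. On the log2 scale the density of sequence 2 over that of the others was 0.27 ± 0.70 (SD, n = 2) for the brain lists and 0.42 ± 0.67 (SD, n = 2) for the fat body lists. The difference of 0.15 between the tissues lay within the spread of either (exact two-sided permutation p = 0.667, where 0.333 is the smallest that 2 against 2 libraries allow). By number the values were -0.14 ± 0.12 (SD, n = 2) for number 1 and 0.83 ± 0.087 (SD, n = 2) for number 2, a difference of 0.97. The split by number was noticed in these densities, so it is given as a description with no test. Over the 4 libraries the mean log2 ratio was 0.34 ± 0.57 (SD), with 2 libraries above 0 and 2 below (exact two-sided sign-flip permutation p = 0.5, smallest possible 0.13). It was 0.53 with brain 1 left out, 0.20 without brain 2, 0.48 without fat body 1 and 0.16 with fat body 2 left out.

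The bases covered by peaks followed the same order. Peaks covered 2.34% of sequence 2 in brain 2, against 1.30% of the other 27, and 4.00% in fat body 2, against 2.06%, both ranked 1 of 28. In brain 1 they covered 3.69% against 4.09%, ranked 25 of 28, and in fat body 1 4.53% against 4.89%, ranked 27 of 28. The mean log2 ratio was 0.39 ± 0.60 (SD, n = 4; exact sign-flip permutation p = 0.5).

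**Figure D1:**
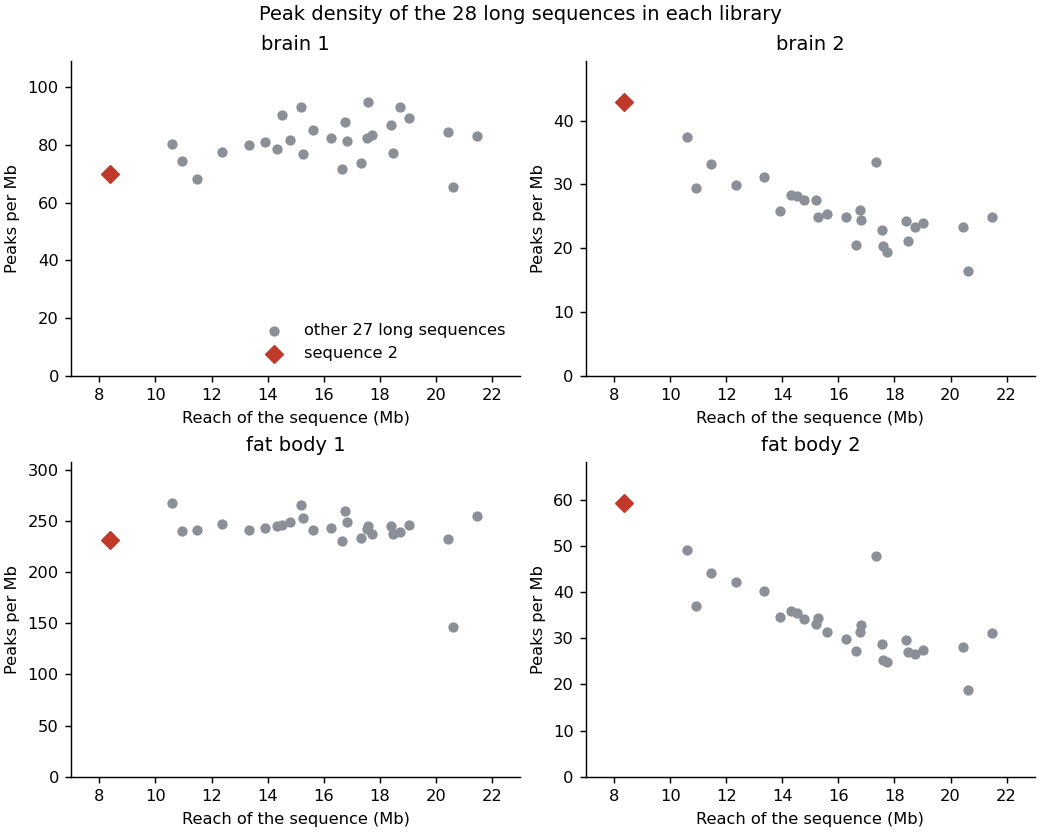
Peaks per Mb (y axis, from 0) against the reach of the sequence in Mb (x axis) for the 28 long sequences, 1 panel per library, with sequence 2 as a red diamond. Sequence 2 stands at the top in brain 2 (42.9) and fat body 2 (59.3) and below most sequences in brain 1 (69.9) and fat body 1 (231).

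The high density in the number 2 lists lay at the end of a trend with sequence length. Across the 28 sequences, density and reach had a Spearman correlation of -0.80 for brain 2 and -0.84 for fat body 2. For brain 1 it was 0.37, and for fat body 1 -0.19. The points share a library, and the correlations are descriptions over 28 sequences. The number of peaks per sequence varied less than the reach in the number 2 lists. It ran from 321 to 581 in brain 2 and from 388 to 830 in fat body 2. The 359 and 496 peaks of sequence 2 were below the medians of 403 and 507 but not the fewest, ranked 22 and 20 of 28. In brain 1 and fat body 1 the 585 and 1934 peaks of sequence 2 were the fewest of any long sequence, where the medians were 1332 and 3911.

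A straight line of log2 density on log2 reach through the other 27 sequences, extended to the reach of sequence 2, gave 40.1 peaks per Mb in brain 2 and 55.9 in fat body 2. The observed densities were 1.07 and 1.06 times these, which was within the residual SD of the line in both lists (0.099 against an SD of 0.18 and 0.085 against 0.21, log2). These SDs include sequence 24, furthest above the line (0.49 and 0.68), and sequence 1, furthest below (-0.37 and -0.45). Sequence 24 did not follow the length trend. With a reach of 17.3 Mb it had 33.5 and 47.8 peaks per Mb, ranked 3 of 28 in both lists. In brain 1 the observed density of sequence 2 was 0.929 times the line, also within the residual SD (-0.11 against 0.13). In fat body 1 it was 0.850 times the line and outside it (-0.23 against 0.15). There the line gave 272 peaks per Mb, above the 267 of the densest sequence. Sequence 1, with 146 peaks per Mb in fat body 1, lay furthest below that line (-0.64, log2). The lines were not refitted without sequence 1. They were chosen after the densities were seen and extend below 10.6 Mb, the shortest reach fitted. Sequences 28, 27 and 26, the next shortest, had 37.4, 29.4 and 33.2 peaks per Mb in brain 2 and 49.1, 37.0 and 44.2 in fat body 2, all below sequence 2. In brain 1 they had 80.4, 74.5 and 68.0, and in fat body 1 they had 267, 240 and 241.

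Strong and weak peaks of sequence 2 did not share 1 density ratio. In brain 1 the peaks in the lower 50% of the list by −log10 q had a density of 29.9 per Mb against 41.0 elsewhere, ranked 27 of 28. The upper 50% had 40.1 against 40.9, and the strongest 10% had 9.33 against 8.15, ranked 6 of 28. In fat body 1 the weak peaks had the higher ratio. The lower 50% had 134 peaks per Mb on sequence 2 against 120 elsewhere, the highest of the 28 sequences, and the upper 50% had 97.6 against 120, ranked 27. The strongest 10% of fat body 1 had 22.1 against 24.0, ranked 19. In brain 2 the density was 1.70 times that of the others both in the upper and in the lower 50%, and 1.94 times in the strongest 10%. In fat body 2 the ratio was 1.66 in the upper 50%, 2.05 in the lower 50% and 2.26 in the strongest 10%.

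With the 11572 best peaks by −log10 p of each list, the length of the shortest list, the ratio of brain 1 moved from 0.854 to 1.09 and its rank from 26 to 8. Fat body 1 stayed below the other sequences at 0.921, ranked 18. Brain 2 kept its whole list by construction, and fat body 2 had a ratio of 1.81, ranked 1.

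The local background around the peaks was higher on sequence 2 than on the other 27 in all 4 libraries. Background means the read pile-up that the peak caller set against the summit, recovered here from the fold enrichment and p of each peak. In brain 1 its median was 10.3 reads against 9.63 elsewhere, and in brain 2 4.41 against 4.11. The fat body 1 median was 9.95 against 8.34, and that of fat body 2 4.74 against 4.14. It ranked 6 and 5 of 28 in the brain lists and 1 of 28 in both fat body lists. The log2 ratio was 0.099 ± 0.0070 (SD, n = 2) in brain and 0.22 ± 0.043 (SD, n = 2) in fat body, without overlap (exact two-sided permutation p = 0.333, the smallest possible). Against sequences 26, 27 and 28 alone the tissues overlapped, at 0.26 and 0.24 for the brain lists and 0.35 and 0.20 for the fat body lists. Over all 4 libraries it was 0.16 ± 0.077 (SD), above 0 in 4 of 4 libraries, with the smallest p that 4 libraries allow (exact two-sided sign-flip permutation p = 0.13). The median was chosen after the data were seen, since the planned measure, the share of peaks over 5% above the lowest background of the list, was near its ceiling. That share was 100% (brain 1), 99.4% (brain 2), 99.7% (fat body 1) and 99.4% (fat body 2), a mean of 0.185 percentage points above the other 27 (exact sign-flip permutation p = 0.25).

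The authors' fold enrichment of the summit was lowest on sequence 2 among the 28 sequences in both fat body lists. Its median was 3.54 in fat body 1 against 4.01 elsewhere and 7.56 in fat body 2 against 8.58. In brain 1 it was 5.85 against 5.61, ranked 5, and in brain 2 it was 5.30 against 5.38, ranked 19. The log2 ratio of the fat body lists was -0.18 ± 0.0020 (SD, n = 2), and that of the brain lists 0.019 ± 0.059 (SD, n = 2; exact two-sided permutation p = 0.333 for the difference, the smallest possible). With the 11572 best peaks of each list the fat body values were further apart, -0.19 for number 1 and -0.096 for number 2. Over 4 libraries the mean was -0.081 ± 0.12 (SD; exact sign-flip permutation p = 0.375). Fold is the pile-up plus 1 divided by the background plus 1, so the measures are tied by construction. The pile-up itself had a median of 69 reads on sequence 2 in brain 1 against 57 elsewhere, which no other sequence exceeded. In the other lists it was 28.5 against 28 (brain 2), 37 against 35 (fat body 1) and 41 against 41 (fat body 2).

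**Figure D2:**
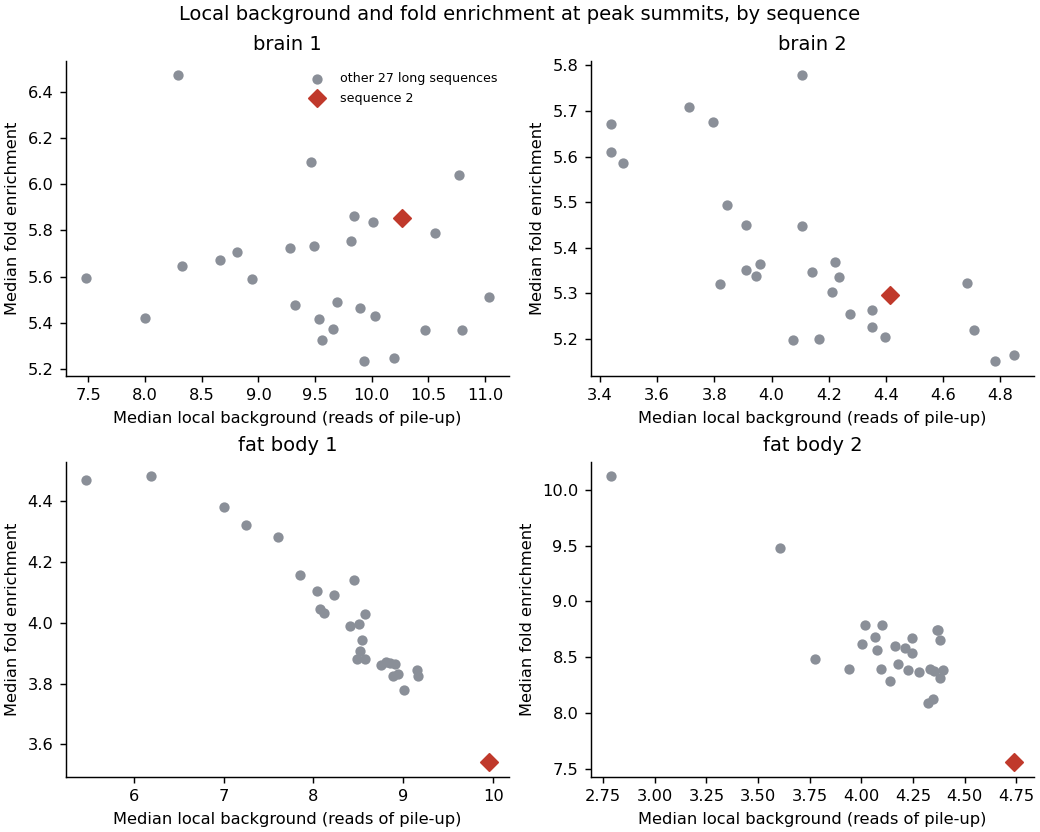
Median fold enrichment (y axis) against median local background in reads of pile-up (x axis) at the peak summits of each of the 28 long sequences, 1 panel per library, axes not starting at 0, sequence 2 as a red diamond. In the fat body panels sequence 2 has the highest background (9.95 and 4.74) and the lowest fold (3.54 and 7.56).

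The peaks of sequence 2 were close in width to those elsewhere. In brain 1 the median width was 438 bp against 425 bp on the other 27, and in brain 2 524 against 488 bp. The fat body 1 median was 159 against 166 bp, and that of fat body 2 652 against 635 bp. Brain 2 ranked 2 of 28 and fat body 1 ranked 28, whereas brain 1 and fat body 2 ranked 8 and 10. The mean log2 ratio was 0.031 ± 0.068 (SD, n = 4), which is smaller than the spread between libraries (exact two-sided sign-flip permutation p = 0.5). The widest peaks on sequence 2 measured 2676 bp (brain 1), 1417 bp (brain 2), 1004 bp (fat body 1) and 2215 bp (fat body 2).

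The number 2 lists differed from the other sequences more at the lower than at the upper quartile of width. The lower quartile of width was 380 bp in brain 2 against 336 bp elsewhere, the highest of the 28 sequences, and 419 against 376 bp in fat body 2, ranked 5. The upper quartiles were 679 against 660 bp and 861 against 856 bp. On sequences 28, 27 and 26, the next shortest, the lower quartile was 358.5, 359 and 372 bp in brain 2. In fat body 2 it was 432, 399.5 and 420.5 bp there, on both sides of sequence 2. Peaks of 1000 bp or more made up 7.52% of the sequence 2 peaks in brain 1 against 5.92% elsewhere, and 11.7% against 9.23% in fat body 2. In brain 2 they were 2.79% against 2.20%, and in fat body 1 0.0517% against 0.129%.

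**Figure D3:**
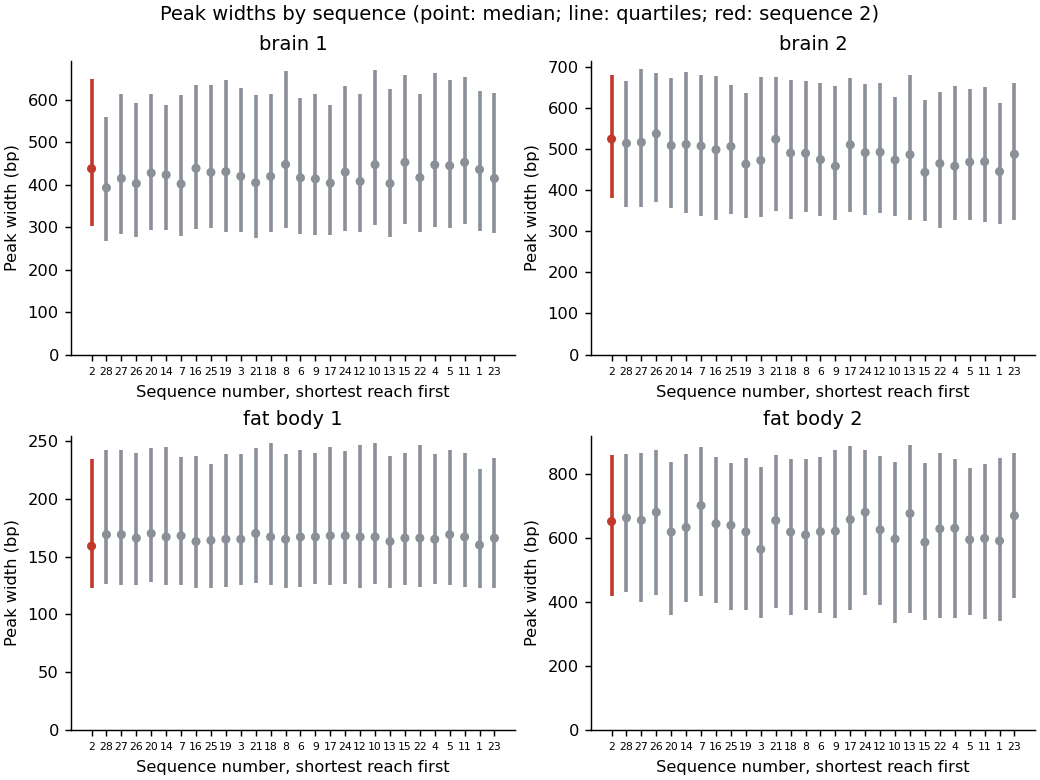
Median peak width in bp (points) with its quartiles (lines) for each long sequence, shortest reach at the left, 1 panel per library, y axis from 0, sequence 2 in red. The medians of sequence 2, 438, 524, 159 and 652 bp, lie among or next to those of the other sequences.

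Along sequence 2 the peaks were spread over every 0.5-Mb bin, and bin 5, from 2 to 2.5 Mb, was the poorest full bin in all 4 libraries. Brain 1 had 21 peaks there, where the median of the 16 full bins was 36, and brain 2 had 12 with a median of 22.5. Fat body 1 had 102 with a median of 112.5, and fat body 2 had 15 with a median of 32. The richest full bin differed among libraries. It was bin 8, from 3.5 to 4 Mb, in brain 1 with 49 peaks. In brain 2, bins 8 and 15 both had 30. In fat body 1 it was bin 12, from 5.5 to 6 Mb, with 132, and in fat body 2, bins 2 and 15 both had 40. The richest bin was 1.28 ± 0.085 (SD, n = 4) times the median bin.

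At each end of sequence 2, 1 list stood above its median bin and the other 3 below. In the first bin brain 1 had 90 peaks per Mb, its second highest value, whereas fat body 1 had 210, brain 2 had 34 and fat body 2 had 46, all under their median bins. In the last bin, which is 0.364 Mb long, fat body 1 had 269 peaks per Mb, more than in any full bin, and brain 1 had 63.2, under its median bin. There brain 2 had 27.5 and fat body 2 had 33.0, each lower than in every full bin but bin 5. In the number 1 lists the first peak began at 20669 (brain) and 21238 (fat body), and in the number 2 lists at 95707 (brain) and 71334 (fat body). The last ended at 8363864 and 8363833 in the number 1 lists and at 8314965 and 8301984 in the number 2 lists.

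**Figure D4:**
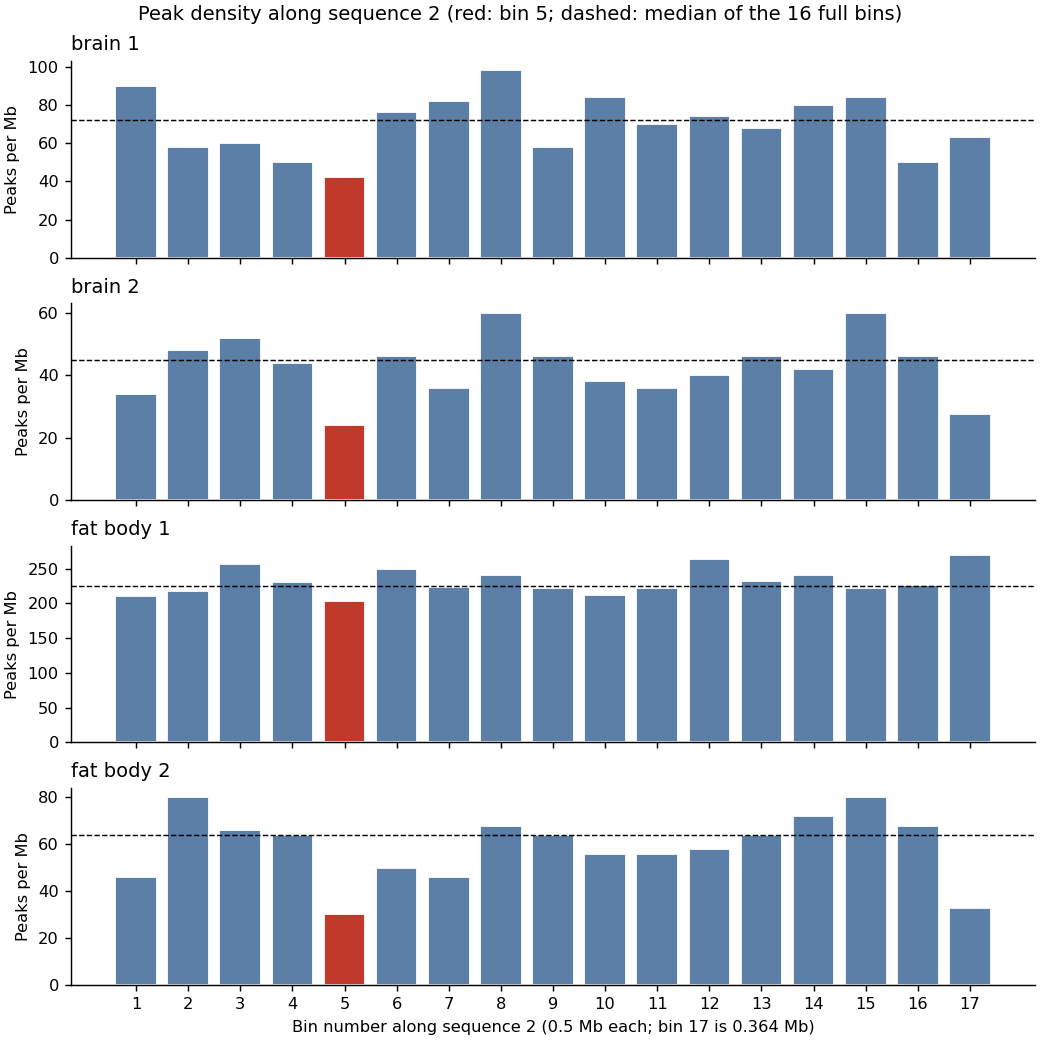
Peaks per Mb (y axis, from 0) in the 17 bins of sequence 2 (x axis, bin number), 1 panel per library, with bin 5 in red and the median of the 16 full bins dashed. Bin 5 is the lowest full bin in every panel, at 42, 24, 204 and 30 peaks per Mb from top to bottom.

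The bins of brain 2 and fat body 2 rose and fell together. Over the 16 full bins the Spearman correlation of their counts was 0.80, while brain 2 with fat body 1 had 0.43 and the fat body lists with each other had 0.28. It was between -0.030 and 0.064 for brain 1 with each of the others. These are descriptions over bins of 1 sequence, which share library and position. On the other 27 sequences the value for brain 2 with fat body 2 ran from 0.33 to 0.92, with a median of 0.64.

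The spread of counts over bins, relative to their mean, was low for sequence 2 in 3 of the libraries. The coefficient of variation over its full bins was 7.31% in fat body 1, 21.3% in brain 2 and 21.7% in fat body 2, each the lowest of the 28 sequences. In brain 1 it was 22.8%, ranked 4 from the highest. Bins with more peaks vary less in proportion, so the variance over the mean is given too: it was 0.613 in fat body 1, the lowest of 28, 0.985 in brain 2, ranked 27, 1.42 in fat body 2, ranked 20, and 1.83 in brain 1, ranked 9.

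Most merged regions of sequence 2 were present in 1 list. That held for 1948 regions or 76.3%, against 78.0% on the other 27 sequences. In 2 lists there were 464 or 18.2%, against 17.2%, and in 3 lists 114 or 4.46%, against 4.03%. In all 4 lists there were 28 or 1.10%, against 0.821%. Regions of fat body 1 alone numbered 1504, or 58.9% (95% Clopper-Pearson interval 57 to 60.8), against 62.1% elsewhere. Per Mb their number was close to that elsewhere, at 180 against 181. Regions of brain 1 alone numbered 279, or 10.9%, against 12.5%, and per Mb 33.4 against 36.4. These intervals are for counting error alone, since regions are not replicates.

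The largest classes with a number 2 list and without brain 1 made up larger shares of sequence 2 than of the other sequences. Regions in brain 2 and fat body 2 alone numbered 187, or 7.32% (6.34 to 8.40), where the background over all merged regions was 3.59% and the highest of the other 27 sequences had 5.49%. Regions of fat body 2 alone numbered 152, or 5.95% (5.07 to 6.94), against 3.05% on the other 27. Regions in all lists but brain 1 numbered 57, or 2.23% (1.69 to 2.88), against 1.33%. That share ranked 4 of 28, and the highest of the other sequences had 2.28%. A larger share was also seen in a small class that holds brain 1. Regions in all lists but fat body 1 numbered 8, or 0.313% (0.135 to 0.616), against 0.138%, ranked 1 of 28. Regions in brain 1 and fat body 1 alone showed the opposite: there were 198, or 7.75% (6.74 to 8.86), where the background was 11.4% and the lowest of the other sequences had 8.75%. Regions in all lists but brain 2 numbered 5, or 0.196%, the lowest share of the 28 sequences, against 0.568%.

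Regions of 1 tissue were few. Brain-only regions, present in both brain lists and in no fat body list, numbered 19, or 0.744% (0.448 to 1.16), against a background of 0.502%. Fat-body-only regions, the reverse, numbered 54, or 2.11% (1.59 to 2.75), against 1.54%. Regions in all 4 lists numbered 28, or 1.10% (0.730 to 1.58), against 0.825%. The shares ranked 3, 1 and 2 of 28, and the intervals of the brain-only and the 4-list share include the background. With lists of equal length, the 11572 best peaks of each, the shares of sequence 2 were 4.52% brain-only and 1.33% fat-body-only, both below the 5.68% and 2.53% of the other 27, so that the direction of both turned with list length. Without brain 1, where a brain-only region needs brain 2 alone, the shares were 1.52% brain-only against 0.989% on the other 27, 2.56% fat-body-only against 2.36%, and 3.64% in all 3 remaining lists against 2.37%. Sequence 2 was below the others in the brain-only share without brain 2 (11.7% against 13.0%) and without fat body 1 (5.98% against 6.56%), in the fat-body-only share without fat body 2 (65.0% against 65.8%) and in the share in all remaining lists without brain 2 (1.22% against 1.38%). Both tissue-only classes need a list of number 2, where sequence 2 was dense, and the part of that density in these counts was not tested.

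**Figure D5:**
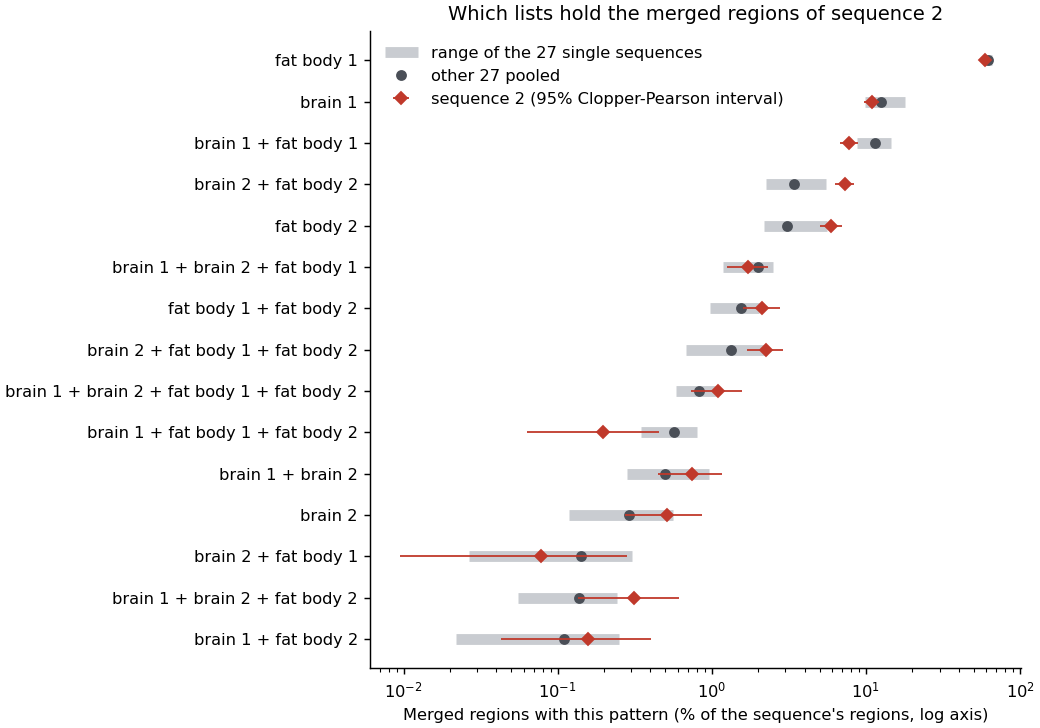
Share of merged regions with each pattern of presence, in % of the regions of the sequence on a log axis, for sequence 2 (red, 95% Clopper-Pearson interval), the other 27 pooled (dark points) and the range of the 27 single sequences (grey bars). The pattern of brain 2 and fat body 2 alone stands at 7.32% against 3.42% pooled, and that of brain 1 and fat body 1 alone at 7.75% against 11.5%.

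Of the number 2 peaks, a smaller share was met by the number 1 lists on sequence 2 than elsewhere, and a larger share by the other number 2 list. Of the 359 peaks of brain 2, 96 overlapped a brain 1 peak, or 26.7% (22.2 to 31.6), against 39.6% on the other 27, ranked 26 of 28. Of the same peaks, 33.7% (28.8 to 38.9) overlapped fat body 1, against 47.3%, the lowest of 28. Fat body 2 overlapped 280 of them, or 78.0% (73.3 to 82.2), against 65.8%, the highest of 28.

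The fat body 2 peaks were alike in this. Of 496, 140 overlapped fat body 1, or 28.2% (24.3 to 32.4), against 38.1%, and 40 overlapped brain 1, or 8.06% (5.82 to 10.8), against 14.5%, both the lowest of 28. Brain 2 overlapped 56.5% (52.0 to 60.9), against 51.9%. Seen from the number 1 lists, the share that overlapped number 2 was larger on sequence 2. Of the 585 brain 1 peaks 16.2% (13.3 to 19.5) overlapped brain 2, against 12.1%, and of the 1934 fat body 1 peaks 7.70% (6.55 to 8.98) overlapped fat body 2, against 5.55%. Both were the highest of 28. A denser list is met more often by any peak, and chance overlap was not computed.

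Peaks found in both tissues of a number had a higher median fold. In brain 1 the 275 peaks that overlapped fat body 1 had a median fold of 7.47 and a median width of 566 bp, while the 310 that did not had 5.07 and 364.5 bp. In brain 2 the 280 that overlapped fat body 2 had 5.62 and 563 bp, and the other 79 had 4.66 and 359 bp. In fat body 1 the 307 shared peaks had 4.96 and 180 bp, against 3.42 and 157 bp. In fat body 2 the 280 shared peaks had a higher fold, 9.11 against 6.44, but were narrower than the others, at 609.5 against 777.5 bp.

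The strongest peaks of sequence 2 in brain 2 and fat body 2 were the same region, and neither number 1 list had a peak there. It ran from 2049657 to 2050987, inside the poor bin 5, and its summit was at 2050321 in both lists. Its enrichment was 36.7-fold in brain 2 and 44.3-fold in fat body 2. Its fold ranked 4 among the 11572 peaks of brain 2 and 9 among the 14752 of fat body 2. The second region of brain 2 and fat body 2 alone ran from 122234 to 123586, enriched 23.5-fold (brain 2) and 39.5-fold (fat body 2), its summits 33 bp apart. Over all 187 regions of this class the median fold was 5.43 (brain 2) and 8.29 (fat body 2).

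The best regions in all 4 lists, ranked by the mean percentile of −log10 q among the sequence 2 peaks of each list, lay in bins 2, 13, 8 and 15. The first, from 987221 to 988361, was enriched 12.2-fold in brain 1 and 6.76-fold in brain 2. In the fat body lists it was enriched 27.6-fold (number 1) and 19.4-fold (number 2). Its summits lay within 59 bp, and it was the strongest sequence 2 peak of fat body 1 by −log10 q, ranked 3 in that whole list. The second, from 6426239 to 6427469, had 11.2-fold, 7.20-fold, 31.7-fold and 20.3-fold enrichment in the same order. The third, from 3740726 to 3741344, had 15.4-fold, 5.65-fold, 21.7-fold and 17.7-fold. All 3 lay at percentile 85.0 or higher among the sequence 2 peaks of every list.

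The fourth, from 7055231 to 7056681, had 11.5-fold, 5.92-fold, 15.6-fold and 8.38-fold enrichment, with summits up to 426 bp apart. The fifth, from 980143 to 982929, was also the widest merged region of sequence 2 at 2787 bp, joined from 7 peaks, with 8.98-fold, 4.62-fold, 11.5-fold and 9.90-fold. It lay 4291 bp before the first. The strongest sequence 2 peak of brain 1 lay in another such region, from 4744996 to 4745619, at 16.9-fold. The other lists had 9.15-fold (brain 2), 18.5-fold (fat body 1) and 9.84-fold (fat body 2) there. Over the 28 regions the median fold was 11.1, 5.67, 9.45 and 9.40, and the median width of the merged region was 1150 bp, against 901 bp for such regions of the other 27 sequences.

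The best brain-only region ran from 621257 to 621866, with 11-fold enrichment in brain 1 and 6.34-fold in brain 2 and summits 41 bp apart. The next, from 7919135 to 7919743, had 13.4-fold and 6.31-fold enrichment, and the third, from 7070964 to 7071543, had 8.81-fold and 3.89-fold. Over the 19 brain-only regions the fold ran from 3.61 to 13.4 in brain 1, with a median of 8.81, and from 3.59 to 7.03 in brain 2, with a median of 4.71. Folds belong to lists of different length and unknown read depth and are not compared between libraries. No brain-only region lay in bins 5, 9, 12 or 17, and 3 lay in bin 15.

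The best fat-body-only region ran from 7995733 to 7996692, and its summits lay 2 bp apart. The fat body 1 peak was enriched 8.50-fold and that of fat body 2 19.0-fold. The next, from 360752 to 361057, had 16.1-fold and 13.8-fold enrichment, and the third, from 6527843 to 6528121, had 15.7-fold and 9.97-fold. Over the 54 regions the fold ran from 2.60 to 16.9 in fat body 1, with a median of 3.72, and from 3.59 to 25.6 in fat body 2, with a median of 7.41. Every bin but bin 5 held at least 1, and bins 11 and 16 held 7 each.

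The best regions of brain 1 and fat body 1 alone lay from 1501355 to 1502250 and from 6036552 to 6037429. The former had 16.7-fold enrichment in brain 1 and 13.8-fold in fat body 1. The latter had 10.8-fold and 25.7-fold enrichment with the summit at 6037131 in both lists. Over the 198 regions of this class the median fold was 6.17 (brain 1) and 4.66 (fat body 1). The class was most frequent in bin 12, with 18 regions, and the class of brain 2 and fat body 2 alone in bin 3, with 17.

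Of the other wide merged regions, the second ran from 157927 to 160578 and was present in all lists but fat body 1, at 5.70-fold (brain 1), 7.23-fold (brain 2) and 9.13-fold (fat body 2). The third, from 1523680 to 1525894, was in fat body 2 alone, with 8.97-fold enrichment. Of the 3 longest stretches without a peak in any list, the longer 2 lay in or across the start of bin 5. They ran from 2121572 to 2168557 (46986 bp), from 1994439 to 2032914 (38476 bp) and from 8334988 to 8363413 (28426 bp). The longest gap of sequence 2 ranked 11 of 28, where the other sequences had 23654 to 118606 bp. The median distance between neighbouring merged regions was 2077 bp, against a median of 2170 bp over the other sequences.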

How the data were processed

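Per the submitters' processing notes, the authors' tools were MACS2 2.1.0, deepTools 3.3.0, Picard, Bowtie2 and Trim Galore. The genome build and the settings were not given in the sources used here. The files are 1 narrowPeak list per library, not of pooled reads. Each deposited list gives per peak the authors' fold enrichment of the summit (a ratio to local background), −log10 p and q, a whole-number score and the summit's offset. The deposited score, not analysed, is 10 times −log10 p, but 10 times −log10 q in fat body 2, where the lowest −log10 p was 6.69 against 5.01 to 5.03 in the others. Lists were thus cut differently, which can change how many weak peaks each holds. The narrowest peak was also 94 bp wide in fat body 1, against 203 (brain 1), 230 (brain 2) and 212 bp (fat body 2). The part of this in the widths and in the overlaps with fat body 1 was not tested.

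Peaks were compared over the 4 libraries with Python 3.11.15, numpy 2.4.6, pandas 2.3.3 and scipy 1.17.1. For sequence 2 and the other 27 long sequences, density was peaks divided by the end of the last peak of any list. Bins took peaks by summit. Whole pile-ups from 2 to 1000 were tried against fold and p at a relative tolerance of 2e-05 where −log10 p was under 250. Exactly 1 matched for 100% of those peaks in each list. Stronger peaks have no background or pile-up value here. On sequence 2 the peaks tried were 560 of 585 (brain 1), 358 of 359 (brain 2), 1925 of 1934 (fat body 1) and 485 of 496 (fat body 2). In the whole lists they were 35630 of 36420, 11552 of 11572, 106203 of 107057 and 14387 of 14752. The part left out was thus larger on sequence 2 in the brain lists and smaller in the fat body lists. Merged regions joined overlaps of at least 1 bp over the 4 lists. Tests were exact permutations over libraries, two-sided; shares have 95% Clopper-Pearson intervals that cover counting error only. Functions were tested on simulated data. Named regions are those of highest mean −log10 q percentile in each class, the widest, the strongest of each list and the longest gaps. Members, classes and rules were chosen with earlier results of these data known. Alternatives were −log10 q of at least 5, equal list lengths, other reference sequences, bins, overlaps, summit windows and left-out libraries. Gene names, sequence letters and chance overlap were not analysed here.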

Additional observations from a re-analysis of the deposited data

How the results depend on the processing

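The mean log2 ratios of density, covered bases, width, fold and background kept their direction in every setting run, but their sizes moved, and no p could pass 0.05. Leaving out 1 library gave ranges of 0.16 to 0.53 (density), 0.20 to 0.57 (covered bases), 0.0065 to 0.061 (width), -0.13 to -0.047 (fold) and 0.13 to 0.18 (median background), and 0.084 to 0.29 percentage points for the share above the floor. Against sequences 26, 27 and 28 only, chosen after the data were seen, the mean density ratio was 0.16 (0.37 in brain 2 and 0.45 in fat body 2), that of covered bases 0.18, that of width 0.00079, that of median background 0.26 and the share above the floor 0.526 percentage points higher. The difference in density ratio between the tissues was 0.15 both without and with the replicate block, in which it was 0.17 for number 1 and 0.12 for number 2 (exact sign-flip permutation p = 0.5); it turned to -0.079 with the same number of best peaks, and ran from -0.35 to 0.64 with 1 library left out (-0.35 without brain 1 and -0.32 without fat body 2). With the same number of best peaks, the ratios of brain 1 turned for density (0.13), covered bases (0.19) and fold (-0.0041). Against sequences 26, 27 and 28 those of covered bases in brain 1 (0.061) and of width in brain 2 (-0.0055) and fat body 2 (-0.028) turned. The causes were not tested. The richest bin was 1.62 times the median bin with the same number of best peaks, 1.71 with bins of 0.25 Mb and 1.19 with bins of 1 Mb. The same number of best peaks gave 34 regions of brain only, 10 of fat body only, and 7.87% of fat body 2 found in fat body 1, which was 16.3% elsewhere. Summit windows gave 16 regions in all lists, 0.579% against 0.554% on the other 27, so that the 4-list share was then close to theirs. The shares found again were then 21.7% (brain 2 in brain 1; 32.8% elsewhere) and 21.4% (fat body 2 in fat body 1; 29.3% elsewhere). A class needs fewer lists when 1 is left out. Brain-only regions then ran from 26 to 299 (35 without brain 1, 299 without brain 2, 63 without fat body 1). Fat-body-only regions ran from 59 to 1570 (109 without brain 2, 207 without fat body 1, 1570 without fat body 2). Regions in all remaining lists ran from 31 to 84 (84 without brain 1, 70 without fat body 2). Shares not given above follow, each against the other 27. The brain-only share was 1.08% against 0.643% without fat body 2. The fat-body-only share was 4.28% against 2.86% without brain 2 and 19.7% against 12.2% without fat body 1. The share in all remaining lists was 3.23% against 2.48% without fat body 1. Without fat body 2 it was 2.90% against 2.88%, close to equal. Read depth is unknown, and reads outside called peaks are not listed.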

Other observations

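Of the merged regions of sequence 2, 79 had a peak in 1 tissue and not the other in both library numbers. In 19 of them brain had the peak in both numbers and in 54 fat body did, and 6 pointed in opposite directions. Thus 92.4% (95% Clopper-Pearson interval 84.2 to 97.2) had the same direction, against 89.0% on the other 27 sequences. The 73 regions of same direction are the brain-only and fat-body-only regions counted again. Regions with a peak in fat body and not in brain outnumbered the reverse in both numbers. They were 1617 against 310 in number 1 and 215 against 78 in number 2. An imbalance of that kind alone makes equal directions more frequent, and its part in the 92.4% was not tested. The summits of the lists that share a region lay a median of 80 bp apart in the 19 brain-only regions and 96.5 bp in the 54 fat-body-only regions, against 75 and 79 bp elsewhere. They lay 40.5 bp apart where brain 1 and fat body 1 alone shared the region (198 regions; 44 bp elsewhere) and 110 bp where brain 2 and fat body 2 alone did (187 regions; 81 bp elsewhere). In the last class 45.5% of summits were within 100 bp, against 56.6% on the other 27. Among regions in all 4 lists, another close pair ran from 7055231 to 7056681 and from 7061109 to 7061610, with 4427 bp between.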
